A study of Mus musculus with 2 samples.

Results

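Chromatin accessibility was examined at the 6 genes for the transition factors Snai1, Snai2, Twist1, Twist2, Zeb1 and Zeb2 in murine cardiac fibroblasts. Their peaks were taken as those that the deposited ATAC-seq table assigns to one of these gene symbols, 20 peaks, together with the 10 distal intergenic peaks whose nearest transcription start site (TSS) in the table is theirs, which gave 30 of 63316 peaks. Zeb1 had 9 peaks, Zeb2 had 8, Twist2 had 5, Twist1 had 4, Snai1 had 3 and Snai2 had 1. A gene with a peak had a median of 2 peaks over the 20187 genes of the table.

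ATAC-seq reads open chromatin through the insertion of adapters by the Tn5 transposase, so that more reads over a region mean a more accessible region. There was 1 library per condition, both from primary cardiac fibroblasts of mouse heart treated with TGF-b, the cytokine that drives fibroblasts towards myofibroblasts. The library labelled NC served as control, which by the study's legend received scrambled siRNA, and the library labelled SiPiezo2 received siRNA against Piezo2, a mechanically gated ion channel. The design text of the series instead names a Tet3 knockout by Cre virus, the methods describe minced tissue and another library kit than the labels do, and the labels list total RNA as the molecule, so all values rest on the labels of the libraries. The methods place the study's mouse strains on a C57BL/6 J background, while the strain, age and number of animals behind these cultures, and the number of cultures, were not given separately in the sources used here.

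The 6 genes encode DNA-binding proteins that drive cells from an epithelial to a mesenchymal state. Snai1 and Snai2 are zinc finger repressors of the SNAIL family, Twist1 and Twist2 are basic helix-loop-helix proteins that pair with E proteins, and Zeb1 and Zeb2 are zinc finger homeobox proteins that recruit the CtBP corepressors. The SNAIL and ZEB proteins bind E-boxes such as CAGGTG in genes of cell adhesion, Cdh1 among them, and in the developing heart such transitions give rise to cushion mesenchyme and, from the epicardium, to fibroblasts.

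Peaks lay at the start sites of all 6 genes, and the 250 bases upstream of the start are shown for Snai1, Twist1 and Twist2, whose RefSeq start and table start coincide, to show which bases the start-site peaks covered. The sequences are those of RefSeq on GRCm38.p6, read along the gene. Capitals mark the E-box CAGGTG and the GC box GGGCGG, on either strand.

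Snai1, chr2:167537945-167538194, plus strand: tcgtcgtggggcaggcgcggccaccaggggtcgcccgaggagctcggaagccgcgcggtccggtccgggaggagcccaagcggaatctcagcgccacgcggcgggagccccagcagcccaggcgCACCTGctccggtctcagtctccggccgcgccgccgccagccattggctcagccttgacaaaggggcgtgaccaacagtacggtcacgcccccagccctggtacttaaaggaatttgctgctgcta

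Twist1, chr12:33957421-33957670, plus strand: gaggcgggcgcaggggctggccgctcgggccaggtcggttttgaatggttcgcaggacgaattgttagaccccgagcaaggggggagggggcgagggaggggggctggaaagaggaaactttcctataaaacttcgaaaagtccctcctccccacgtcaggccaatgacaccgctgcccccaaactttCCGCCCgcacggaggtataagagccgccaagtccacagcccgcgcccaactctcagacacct

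Twist2, chr1:91801211-91801460, plus strand: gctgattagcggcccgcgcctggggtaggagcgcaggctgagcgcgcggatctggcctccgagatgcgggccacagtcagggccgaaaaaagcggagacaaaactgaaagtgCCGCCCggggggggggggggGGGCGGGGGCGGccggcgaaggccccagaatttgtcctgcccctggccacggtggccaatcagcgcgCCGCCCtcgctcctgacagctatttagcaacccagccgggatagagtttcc

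The Snai1 sequence held 1 E-box, written CACCTG on this strand, whose first base lies 126 bases upstream of the start. The peak of Snai1 ran from 289 bases upstream to 84 bases downstream of the start and so covered the E-box. The letters CAGGTG were found in 17.2% of 32851 RefSeq promoters of the same length. Twist1 held 1 GC box and Twist2 held 4, a motif found in 32.7% of all promoters. The peak of Twist1 ran from 192 bases upstream to 429 bases downstream, whereas that of Twist2 began 86 bases downstream of the start, in the first exon, and covered none of the printed bases. These promoters were rich in G and C, at 70% for Snai1, 62.4% for Twist1 and 68.8% for Twist2, against a median of 52.4% over all promoters. None of the 3 held GGAATG, the TEAD motif, TGANTCA, the AP-1 motif, or the CArG box of SRF, which were found in 12.6%, 6.75% and 1.47% of all promoters. The RefSeq window of Zeb2, not printed because its start lies 175 bp from the transcript start of the peak table, did hold 1 TEAD motif and 2 AP-1 motifs, with 1 GC box and no E-box or CArG box. These matches describe letters only and not binding.

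Densities below are the read densities of the table, normalized by the authors between the libraries. Differences are given as log2((SiPiezo2 + 1)/(NC + 1)), so that a negative value means a lower density in the SiPiezo2 library, and a peak was counted as lower or higher where the ratio passed 1.5-fold. The values in parentheses are 95% Clopper-Pearson intervals from whole reads recovered from the table, and they cover counting error only. With 1 library per condition no difference has a replicate check and no test between the conditions was made. Fewer cells with an open site and a less open site in each cell cannot be told apart in such libraries.

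Across the 30 peaks of the 6 genes, 8 were lower past 1.5-fold in the SiPiezo2 library, against 14.2% of all peaks, and 1 was higher, against 3.21%. The 8 lower peaks made up 26.7% of the 30. The median log2 ratio of the 30 peaks was -0.13, and that of all 63316 peaks was also -0.13, with quartiles of -0.41 and 0.12. The typical peak of the transition factor genes thus stood where the typical peak of the table did. Of the 30, 7 had counting intervals below 0, against 11.4% of all peaks, 0 had intervals above 0, against 3.63%, and 23 had intervals across 0. The 30 windows include 4 overlapping pairs that share reads, and with each overlapping window counted once 6 of 26 peaks were lower past 1.5-fold and 5 of 26 had intervals below 0. The lower peaks belonged to Snai1 (1), Twist2 (1), Zeb1 (3) and Zeb2 (3), and the higher peak to Zeb2. These directions depend on the scaling: 19 of the 30 peaks were below 0 as the authors normalized them, against 63.7% of all peaks, 15 with median-of-ratios scaling and 14 with recovered reads set to the same total, with 6 and 5 peaks lower past 1.5-fold and 2 peaks higher in both. The same scalings changed the shares over all peaks to 8.81% lower and 6.20% higher, and to 6.84% lower and 7.91% higher.

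**Figure D1:**
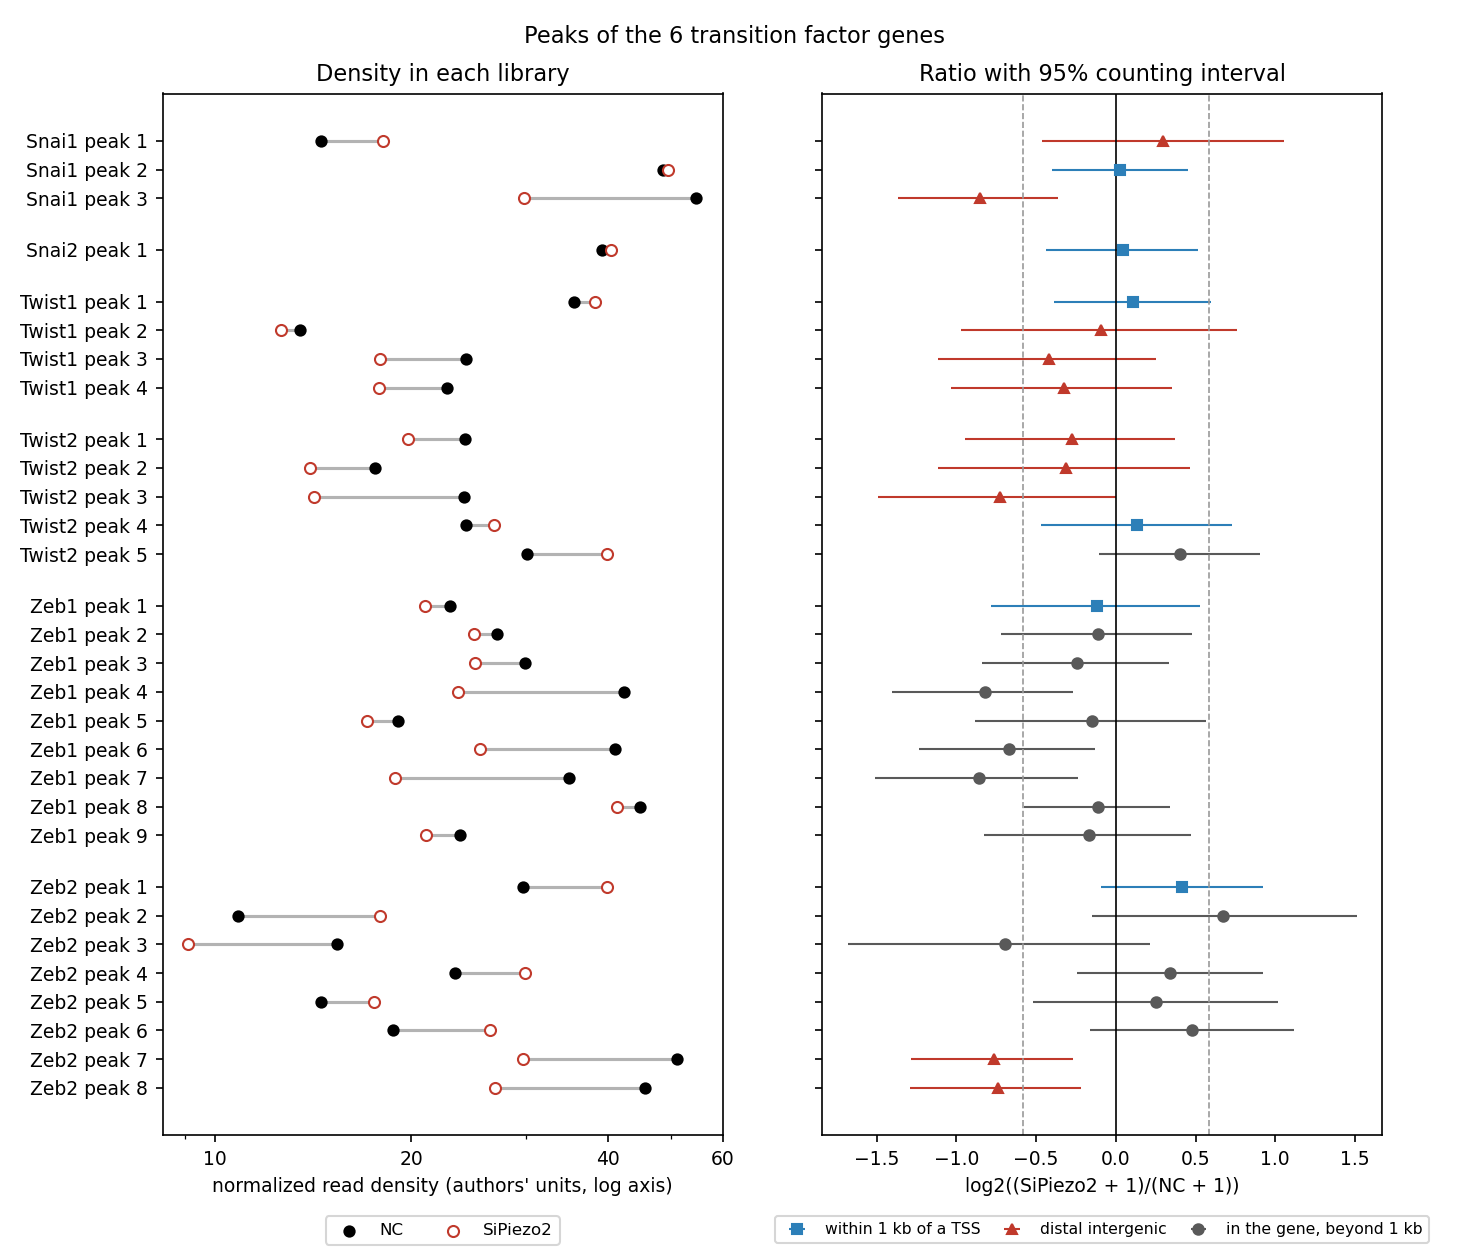
Normalized read density (left, log axis) of each of the 30 peaks in the NC library (filled) and the SiPiezo2 library (open), and the log2 ratio with its 95% counting interval (right; dashed lines mark 1.5-fold), with peaks numbered along each gene's own direction. The 9 Zeb1 peaks all lie left of 0 in the authors' normalization plotted here (6 with median-of-ratios scaling), and the 6 peaks within 1 kb of a TSS lie between -0.12 and 0.42.

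Read depth sets the precision of these values. The windows of all peaks held 4615335 reads in the NC library and 2754046 in the SiPiezo2 library. The 30 peaks held between 24 and 137 reads in NC and between 15 and 76 in SiPiezo2, with medians of 57.5 and 38.5. Peaks called in both libraries with as many NC reads as these had 1.99 times the variance that counting gives, and with intervals widened for it 4 of the 30 peaks were below 0, against 3.85% of all peaks. With each overlapping window counted once these were 3 of 26. Of the fibroblast markers, 8 of 10 had a peak, among them Col1a1, Col1a2, Col3a1 and Pdgfra, and the summed density was 2983 in NC and 2344 in SiPiezo2. None of these 8 genes passed 1.5-fold, and 8 were below 0 in the authors' normalization, against 65.7% of all genes, or 6 with median-of-ratios scaling. Their median log2 ratio was -0.34 against -0.11 for all genes, and 5 of the 8 had counting intervals below 0, against 18% of all genes. The 8 genes had a median of 14.5 peaks, against 2 for all genes. More reads give narrower intervals, so the 18% is not a like comparison. Of the cardiomyocyte markers 3 of 8 had a peak and Myh6, Myh7, Tnni3, Nppa and Myl2 had none, with summed densities of 363 in NC and 324 in SiPiezo2 and a median log2 ratio of -0.067. The leukocyte markers, 3 of 6 with a peak, went from 362 to 277, of which Csf1r took 223 and 149 (median -0.21). The endothelial markers, 6 of 6, went from 999 to 939, of which Emcn took 139 and 84.7, with 2 of the 6 above 0 (median -0.019). The smooth muscle and pericyte markers, 4 of 5, went from 523 to 438, of which Rgs5 took 177 and 100.06, while Cspg4 was at 0.16 (median -0.18). The mesothelial and epithelial markers, 4 of 5, went from 167 to 189, with Cdh1 below 0 and the other 3 above it (median 0.45). These marker medians also depend on the scaling, and with median-of-ratios scaling those of the cardiomyocyte and endothelial lists were above 0. With recovered reads set to the same total those of the leukocyte (0.10) and smooth muscle and pericyte (0.075) lists were above 0 too. That of the fibroblast list was then -0.14. The part of cell composition in the values of the transition factor genes was not tested. Piezo2 itself, whose transcript rather than its chromatin the siRNA targets, had 15 peaks, whose densities added up to 359 in NC and 259 in SiPiezo2, a log2 ratio of -0.47 (-0.64 to -0.30), which does not check the knockdown.

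At the start sites, 6 peaks lay within 1 kb of a TSS, 1 for each gene. None of the 6 was lower past 1.5-fold, against 6.91% of all peaks within 1 kb of a TSS, and none was higher, against 2.08%. Their ratios ran from -0.12 at Zeb1 to 0.42 at Zeb2 with a median of 0.077, while the median of all 14801 such peaks was -0.042. Summed over the 6 genes the density was 200.01 in NC and 216 in SiPiezo2, a log2 ratio of 0.11 (-0.093 to 0.31). Of the 6, 1 was below 0 and 5 above it in the authors' normalization, against 55.5% of all such peaks below 0, with median-of-ratios scaling all 6 were above 0, and with reads left unscaled all 6 were below it. Every one of the 6 counting intervals crossed 0, which at this depth does not show that the libraries were equal there.

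Snai1 is the zinc finger repressor that is induced early by TGF-β. Its start-site peak, at chr2:167379826-167380199 on GRCm39 and 103 bp upstream of the TSS, had a density of 48.6 in NC and 49.6 in SiPiezo2, a log2 ratio of 0.028 (-0.40 to 0.45) from 124 and 76 reads. It was called in both libraries. The widest of all 30 peaks, 814 bp at chr2:167385293-167386107, began 559 bp past the annotated 3′ end of Snai1 and was called in NC only. There the density was 54.5 in NC and 29.7 in SiPiezo2, the strongest NC value among the 30 peaks, and the log2 ratio was -0.85 (-1.37 to -0.36) from 137 and 46 reads. The region behind the gene was therefore at 54.5% of its NC density while the ratio at the start site had an interval on both sides of 0, and these 2 intervals overlap. A weaker intergenic peak 9.73 kb upstream of the TSS had 14.5 in NC and 18.1 in SiPiezo2, a log2 ratio of 0.30 (-0.46 to 1.06) on 33 and 30 reads. The summed density of Snai1 was 118 in NC and 97.4 in SiPiezo2, a log2 ratio of -0.27 (-0.56 to 0.017), and without the intergenic peaks the value of the gene was that of the start-site peak, 0.028.

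Snai2, which encodes Slug, had a single peak, at its start site (chr16:14523277-14523801, 177 bp upstream of the TSS). The density was 39.2 in NC and 40.4 in SiPiezo2, on 98 and 63 reads. The log2 ratio of 0.045 (-0.44 to 0.52) was the only one above 0 among the full sums of the 6 genes in the authors' normalization, and it lay above those of 71.3% of all genes with a peak. With overlapping windows counted once Zeb2 was above 0 too, at 0.083. The Snai2 peak was called in NC only although its densities differed little, and NC had the more reads over the peaks of the table. Whether depth had a part in this call was not tested.

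Twist1 had its start-site peak in the annotated 5′ UTR, at chr12:34007478-34008099, 118 bp from the TSS, and called in both libraries. Its density was 35.4 in NC and 38.3 in SiPiezo2, a log2 ratio of 0.11 (-0.39 to 0.60) from 88 and 60 reads. The other 3 peaks of Twist1 were intergenic, were called in NC only and lay downstream in the direction of Hdac9. The peak 23.9 kb from the TSS had 13.5 in NC and 12.6 in SiPiezo2, a log2 ratio of -0.092 (-0.97 to 0.76). The pair at 82.6 kb and 83.5 kb, whose counting windows overlap by 1119 bp and so share reads, went from 24.3 to 17.9 (-0.42, -1.12 to 0.25) and from 22.7 to 17.9 (-0.33, -1.03 to 0.35). None of the 3 passed 1.5-fold and each interval crossed 0. All 3 ratios were below 0 in the authors' normalization, and that of the peak at 23.9 kb was so near 0 that its sign depends on the scaling. The Twist1 sum was 95.9 in NC and 86.7 in SiPiezo2, a log2 ratio of -0.14 (-0.46 to 0.17), or -0.088 (-0.45 to 0.26) with the overlapping windows counted once, and the ratio was above 0 with recovered reads set to the same total or without the intergenic peaks.

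Twist2, the paralogue of Twist1, had 3 intergenic peaks upstream of the gene, 1 peak in its first exon and 1 in its intron. The peak in exon 1 of 2, 181 bp past the TSS, had a density of 24.3 in NC and 26.7 in SiPiezo2, a log2 ratio of 0.14 (-0.47 to 0.73). The intron peak at chr1:91744262-91744752, called in both libraries, had 30.03 in NC and 39.96 in SiPiezo2, a log2 ratio of 0.40 (-0.11 to 0.90) from 74 and 63 reads. Its nearest TSS in the table, 5.73 kb away, belongs to another gene, ENSMUSG00000101414. Both peaks within Twist2 were thus above 0, whereas the 3 upstream peaks were below it in the authors' normalization. At 80.0 kb upstream the density was 24.2 in NC and 19.8 in SiPiezo2 (-0.28, -0.95 to 0.37), and at 46.1 kb it was 17.6 and 14.0 (-0.31, -1.12 to 0.46). At 38.1 kb, chr1:91690990-91691190, it was 24.1 and 14.2, a log2 ratio of -0.72 (-1.49 to -0.00098) from 56 and 23 reads, the only peak of Twist2 past 1.5-fold. The 3 upstream peaks together had a log2 ratio of -0.45 (-0.86 to -0.047) and the 2 peaks within the gene 0.29 (-0.091 to 0.67), and these intervals overlap. The Twist2 sum was 120 in NC and 115 in SiPiezo2, a log2 ratio of -0.067 (-0.34 to 0.21) whose sign turned with median-of-ratios scaling and with recovered reads set to the same total.

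Zeb1, at chr18:5591860-5775467, had the most peaks and the lowest ratio of the 6 genes. Its summed density was 286 in NC and 218 in SiPiezo2, a log2 ratio of -0.39 (-0.58 to -0.20). This interval is too narrow because 2 pairs of its windows share reads, and with each overlapping window counted once the log2 ratio was -0.34 (-0.55 to -0.13) from 537 and 277 reads. It was the only one of the 6 genes with a counting interval below 0 either way, against 18% of all genes by their full sums. Of all genes 93.8% had fewer peaks than Zeb1, and fewer reads give wider intervals, so the 18% is not a like comparison. With the interval of the separate windows widened for the extra variance, Zeb1 was below 0 (-0.64 to -0.041). The counting and the widened interval lay below 0 in the authors' normalization. With median-of-ratios scaling the separate windows gave -0.20 with an interval across 0 (-0.42 to 0.011), or -0.50 to 0.098 when widened. All 9 peaks were below 0 in the authors' normalization, against 63.7% of all peaks, 6 with median-of-ratios scaling and 5 with recovered reads set to the same total. Among all genes 17.5% had a lower ratio than Zeb1, and among the 1257 genes with at least as many peaks 11.1% did.

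The Zeb1 peaks that were lower past 1.5-fold all lay in a first intron, annotated as intron 1 of 2 or intron 1 of 7. A peak 16.5 kb from the TSS, chr18:5609803-5610357, had 42.4 in NC and 23.5 in SiPiezo2, a log2 ratio of -0.82 (-1.40 to -0.27) from 104 and 37 reads. A pair of neighbouring peaks, 72.9 kb and 73.8 kb from the TSS at chr18:5666308-5666687 and chr18:5667265-5667551, went from 41.1 to 25.4 and from 34.9 to 18.9. Their log2 ratios were -0.67 (-1.24 to -0.13) and -0.86 (-1.51 to -0.24), the second being the lowest of all 30 peaks, and their windows overlap by 1089 bp. No other Zeb1 peak passed 1.5-fold. The strongest Zeb1 peak, 146.9 kb from the TSS in intron 2 of 7, had 44.8 in NC and 41.4 in SiPiezo2 (-0.11, -0.58 to 0.34). The start-site peak, 136 bp upstream of the TSS, had 22.9 in NC and 21.0 in SiPiezo2 (-0.12, -0.78 to 0.53). The other 4 peaks, at 9.87 kb, 10.5 kb, 26.0 kb and 170.8 kb, had ratios from -0.24 to -0.11. Those at 9.87 kb, 10.5 kb and 26.0 kb also lay in a first intron, so the position was not particular to the lower peaks.

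Zeb2, at chr2:44873644-45007407 on the minus strand, had the widest range among its peaks, from -0.77 to 0.67. Its start-site peak, in the 5′ UTR and 18 bp from the nearest TSS (chr2:45000267-45000626), had a density of 29.6 in NC and 39.9 in SiPiezo2, a log2 ratio of 0.42 (-0.092 to 0.92) from 73 and 63 reads. In intron 3 of 10, the peak at chr2:44988136-44988380 was the only one of the 30 called in SiPiezo2 alone, at 10.8 in NC and 17.9 in SiPiezo2, a log2 ratio of 0.67 (-0.15 to 1.51) on 24 and 30 reads. It was the sole higher peak past 1.5-fold and one of the weakest of the 30. Among all peaks called in SiPiezo2 only, the median was 0.58 and 49.8% were higher past 1.5-fold. Another intron 3 peak, chr2:44957133-44957443, was lower in SiPiezo2 on 34 and 15 reads, at 15.4 in NC and 9.10 in SiPiezo2 (-0.70, -1.68 to 0.22). The peaks at chr2:44939312-44939696, chr2:44913909-44914109 and chr2:44909809-44910165 had ratios of 0.34, 0.25 and 0.48, each with an interval across 0. Of the 6 peaks within Zeb2, 5 were therefore above 0, while 63.7% of all peaks were below it. The count was also 5 with median-of-ratios scaling and with recovered reads set to the same total, and 1 with reads left unscaled. Summed, the 6 went from 113 to 141, a log2 ratio of 0.32 (0.058 to 0.58). This interval covers counting error only and was not widened for the extra variance.

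Past the 3′ end of Zeb2 the ratios were of the opposite sign. An intergenic peak 6078 bp beyond the gene, chr2:44867181-44867566, had 51.1 in NC and 29.6 in SiPiezo2, a log2 ratio of -0.77 (-1.29 to -0.27) from 128 and 46 reads. Its neighbour 6846 bp beyond the gene, chr2:44866529-44866798, had 45.6 and 26.9 (-0.74, -1.29 to -0.22), and the windows of this pair overlap by 1290 bp, so they are not separate measurements. They were the strongest NC densities of Zeb2. Over all 8 peaks Zeb2 had 209 in NC and 197 in SiPiezo2, a log2 ratio of -0.085 (-0.29 to 0.12), which became 0.083 (-0.15 to 0.31) when overlapping windows were counted once and was above 0 with median-of-ratios scaling.

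**Figure D2:**
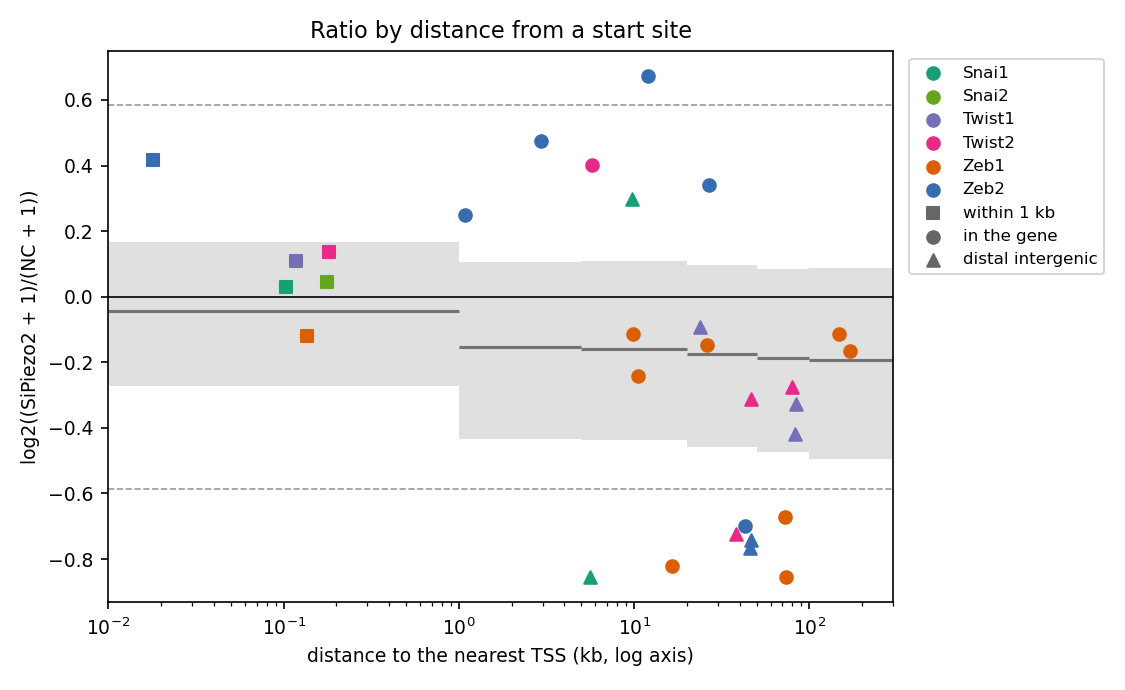
Log2 ratio of each of the 30 peaks against its distance to the nearest TSS (kb, log axis), coloured by gene and shaped by class, with the median (grey line) and quartiles (grey band) of all peaks in each range of distance and dashed lines at 1.5-fold. The 8 peaks lower past 1.5-fold all lie 5.59 kb or more from a TSS. Only 6 of the 30 peaks lie within 1 kb, where 6.91% of all peaks were lower, and 2 between 1 and 5 kb, where 14.6% were.

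Sorted by position, the lower peaks of the 6 genes lay away from the start sites. The plot against distance shows all 8 of them at 5.59 kb or more from a TSS, with 0 of 2 peaks lower between 1 and 5 kb, against 14.6% of all peaks there, 2 of 7 between 5 and 20 kb, against 15.9%, 4 of 8 between 20 and 50 kb, against 16.9%, 2 of 5 between 50 and 100 kb, against 17.8%, and 0 of 2 beyond 100 kb, against 19.3%. With each overlapping window counted once the counts were 2 of 6 between 5 and 20 kb, 3 of 7 between 20 and 50 kb and 1 of 3 between 50 and 100 kb. Over all peaks the share lower was 6.91% within 1 kb and above that in every bin beyond it. Of the 13 intron peaks beyond 1 kb of a TSS, 4 were lower, against 16.0% of all such peaks, and 1 was higher, against 3.17%. With each overlapping Zeb1 window counted once 3 of 11 were lower. The median of the 13 was -0.15, and that of all 24904 such peaks was -0.17. Of the 10 distal intergenic peaks, 4 were lower, against 17.3% of all such peaks, and none was higher, against 4.02%. The 10 had a median of -0.37, while all 19430 distal intergenic peaks had a median of -0.18, and summed they went from 292 to 201, a log2 ratio of -0.54. The 10 include an overlapping pair of Twist1 and another of Zeb2, and with each overlapping window counted once 3 of 8 peaks were lower and the sum went from 218 to 153, a log2 ratio of -0.51 (-0.73 to -0.29). Of the 10, 9 were below 0 in the authors' normalization, against 66.3% of all distal intergenic peaks, and 8 with median-of-ratios scaling or recovered reads at the same total. The assignment of intergenic peaks to these genes is by the nearest TSS and does not show that they regulate them.

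The class in which a peak was called moved with its ratio, as the calls rest on the same reads. The 18 peaks of the 6 genes that were called in NC only had a median of -0.26, against -0.23 for all such peaks, and the 11 called in both had a median of 0.028, against 0.0025. NC-only peaks made up 60% of the 30 and 64.0% of all peaks. Of the 10 distal intergenic peaks 9 were called in NC only, so the low ratios there and the class of the call cannot be told apart. The share of NC-only calls among all distal intergenic peaks is not given here, so the 9 are not read as a trait of these genes. Of the 8 lower peaks 3 were called in both libraries, namely the Zeb1 peaks at 16.5 kb and 73.8 kb and the Zeb2 peak at chr2:44867181-44867566. They were 3 of the 11 peaks with this call, against 5.79% lower among all such peaks.

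Ordered by the ratio of their full sums, the genes ran from Zeb1 through Snai1, Twist1, Zeb2 and Twist2 to Snai2. With overlapping windows counted once Zeb2 was the highest, at 0.083, and Zeb1 still the lowest, at -0.34. None of the 6 was lower past 1.5-fold, against 6.89% of all genes with a peak, and none was higher, against 1.5%. The median of the 6 ratios was -0.11, equal to that of all genes, whose quartiles were -0.30 and 0.080, and Zeb1 alone lay outside these quartiles. Each neighbour in the order had a counting interval that overlapped the next. With median-of-ratios scaling, which moved the median of all genes from -0.11 to 0.024, 3 of the 6 genes were below 0 and 3 above it, and Zeb1 was still the lowest of them at -0.25.

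**Figure D3:**
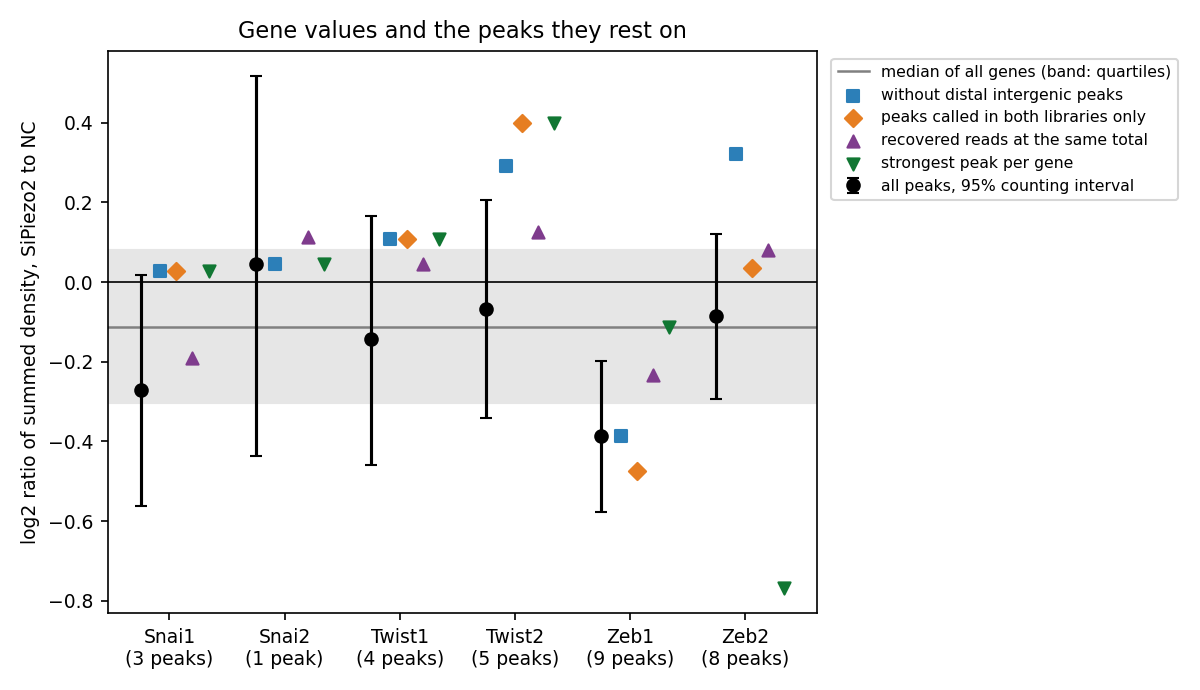
Log2 ratio of summed density for each of the 6 genes with its 95% counting interval (black), beside the values from other sets of peaks or scalings, with the median (grey line) and quartiles (grey band) of all genes. Zeb1 is below 0 for each set shown, whereas Zeb2 runs from -0.77 for its strongest peak to 0.32 without its intergenic peaks.

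The level of density, as distinct from its ratio, was compared per window of the same length. Mean densities per peak in NC and SiPiezo2 were 39.2 and 32.5 for Snai1, 39.2 and 40.4 for Snai2, 23.97 and 21.7 for Twist1, 24.03 and 22.9 for Twist2, 31.8 and 24.3 for Zeb1, and 26.2 and 24.7 for Zeb2. Both SNAIL genes thus had the highest mean densities in NC and the TWIST genes the lowest. These means are over unlike sets of peaks, with 1 start-site peak for Snai2 and 3 intergenic peaks each for Twist1 and Twist2. At the start sites alone Zeb1 was the lowest in NC at 22.9, and Twist1, at 35.4, was above Zeb2, at 29.6. By the distance between the pairs of log2 mean densities per peak, among 66 other genes of the same network, the nearest to Snai1 were Mmp2 (0.090) and Fbxl14 (0.12), and the nearest to Snai2 were Tcf3 (0.049) and Ctbp2 (0.091). Twist1 was nearest to Tcf4 (0.057) and Hdac2 (0.13), and Twist2 to Dsp (0.083) and Tcf4 (0.12). Zeb1 was nearest to Cdh1 (0.078) and Col1a2 (0.12), and Zeb2 to Tbx18 (0.018) and Dsp (0.079). With only 2 libraries this likeness rests on 2 values a gene.

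Genes that work with the 6 factors, upstream or beside them, were taken in another 2 lists. Of 16 other transcription factors of such transitions, 14 had a peak, 6 below 0 and 8 above it, against 65.7% of all genes below 0, and none past 1.5-fold in either direction, with a median of 0.041 against -0.11 for all genes, and of 0.18 against 0.024 with median-of-ratios scaling. Among them were Snai3, the third SNAIL paralogue, at 0.27, Hmga2, a chromatin protein that induces Snai1, at 0.23 (0.068 to 0.39), Wt1, a factor of the epicardium, at -0.48 (-0.86 to -0.11), and the homeobox gene Prrx2 at -0.38. Gsc and Foxq1 had no peak. Of 23 partners and inhibitors 21 had a peak, 13 below 0 and 8 above it, against 65.7% of all genes below 0, and none past 1.5-fold, against 6.89% lower and 1.5% higher, with a median of -0.085, which was above 0 with median-of-ratios scaling. The E protein gene Tcf12, whose product pairs with the TWIST proteins, was at -0.57 (-0.79 to -0.35), the E protein inhibitors Id3 and Id4 were at -0.45 and 0.38, and Sin3a, a corepressor scaffold, was at 0.35.

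Genes that the factors are known to act on were taken in 2 lists, those of the mesenchymal state and those of the epithelial state. Of 21 genes of the mesenchymal state 19 had a peak, 18 of them below 0, against 65.7% of all genes, and 3 lower past 1.5-fold, against 6.89%, with a median of -0.33 against -0.11 for all genes, and of -0.19 against 0.024 with median-of-ratios scaling. Of these, Col1a1, Col1a2, Col3a1 and Pdgfra are also among the fibroblast markers, whose median was -0.34, and the other 15 genes had a median of -0.22 with 14 below 0. The part of fibroblast content in these values was not tested. The 3 were Fn1, which encodes fibronectin, at -0.87, Tnc, the gene of tenascin C, at -0.60, and the protease gene Mmp3 at -0.93 on a single peak, the last named after its value was seen, while Tgfbi was at 0.012 and Cdh2, the gene of N-cadherin, at -0.086. Of 25 epithelial genes that the factors repress only 12 had a peak, 9 below 0, against 65.7% of all genes, and 1 past 1.5-fold upwards, against 1.5% of all genes, with a median of -0.15, which was -0.010 with median-of-ratios scaling and 0.0047 with promoter class peaks only. The gene past 1.5-fold was Krt19, a keratin gene named after its value was seen, at 0.68 (-0.026 to 1.39) on a single peak. Patj, a polarity gene, was at -0.46 and Cdh1, the gene of E-cadherin, at -0.35, while Dsp, which encodes desmoplakin, was at -0.065 and Grhl1 at -0.012. Epcam, Cldn3, Cldn4, Cldn7, Esrp1, Esrp2, Krt8 and Krt18 were among the 13 with no peak. In the plot of the network 5 of the 6 factors lie between the quartiles of all genes, and Zeb1 lies below them. So do genes of each of the lists, among them Wt1, Tcf12, Fn1 and Patj.

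**Figure D4:**
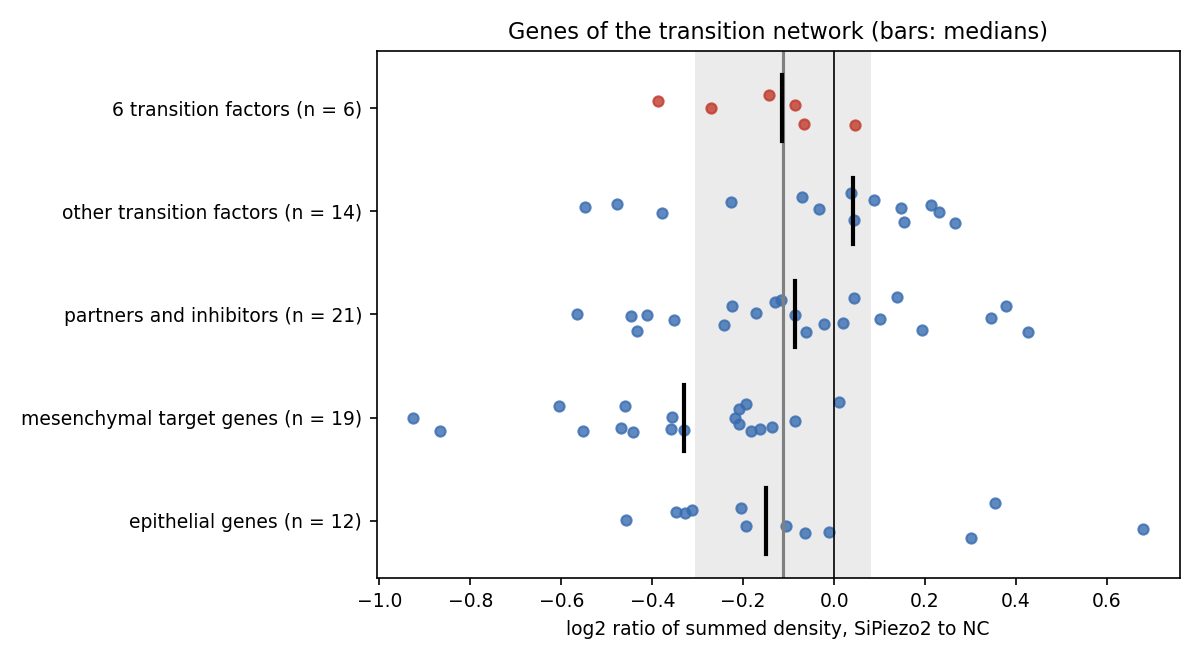
Log2 ratio of summed density for each gene with a peak in the lists of the transition network, 1 point per gene, with list medians (black bars) and the median and quartiles of all genes (grey). The 6 factors have a median of -0.11 and the 19 mesenchymal target genes one of -0.33.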

How the data were processed

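ATAC-seq was made from 2 libraries, 1 per condition, grouped by their labels. The authors deposited 1 table of peaks with 1 signal column per library, a normalized read density. Its values fit a scaling by a regression of the log2 ratio on mean log2 density, which was inferred from the values. The study's methods do not describe such a scaling and name featureCounts and DESeq2. The log2 columns of the peak table, also deposited by the authors, were used only to recover reads. The 2 p-value columns deposited by the authors are their own comparison of the libraries and were not used. The submitters' processing notes name BWA 0.7.12 and mm10, but the starts of 5 of the 6 genes in the table lie over 10 kb from those in GRCm38, and gene coordinates and scaffold names are those of GRCm39. No GRCm39 genome was used here, so no peak sequence was read. RefSeq promoters were given for Snai1, Twist1, Twist2 and Zeb2.

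Whole numbers per 2000 bp window were recovered for 100% of peaks (tolerance 0.05), and reads were taken as that number minus 1, on the assumption that 1 had been added before logs were taken. Exact binomial intervals (95%) were placed around the normalized ratio. Ratios used a pseudocount of 1 per gene sum or peak. Each intergenic peak was counted for the gene of its nearest TSS. Named were all 6 genes with all peaks of genes with 10 or fewer, of each network list the 2 lowest and 2 highest genes among the upper 75% by summed mean density, the 2 genes nearest to each factor in mean density per peak, and Piezo2. The members and lists were chosen with earlier results of these data known. Alternatives were another pseudocount (0.1), scalings (trimmed mean with 30% of ratios and 5% of densities trimmed at each end, median of ratios, same total), recovered reads, subsets of peaks and a fold of 2. Procedures were tested on simulated data and ran in Python 3.11.15 with scipy 1.17.1, pandas 2.3.3, numpy 2.4.6 and, for plots, matplotlib 3.10.9.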

Additional observations from a re-analysis of the deposited data

How the results depend on the processing

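Of 121 alternative values, 84 moved by less than their interval or 1.5 times and 37 moved more. Recovered reads without scaling, which carry the lower depth of the SiPiezo2 library, gave log2 ratios of -0.93 for Snai1, -0.61 for Snai2, -0.69 for Twist1, -0.61 for Twist2, -0.98 for Zeb1 and -0.66 for Zeb2, a peak median of -0.68 (all peaks -0.68), 20 lower (60.4% of all peaks) and 0 higher (0.407%). Recovered reads at the same total gave 5 lower (6.84% of all peaks) and 2 higher (7.91%), and median-of-ratios and trimmed mean scaling each gave 2 higher (6.20% and 6.31%). Without distal intergenic peaks 4 of 20 were lower (12.8% of all such peaks), and Snai1 was 0.028, Twist2 0.29 and Zeb2 0.32. Of 4 promoter class peaks 0 were lower (7.46%) and 0 higher (2.16%), and Snai1 was 0.028, Zeb1 -0.12 and Zeb2 0.25. Of 11 peaks called in both libraries 3 were lower (5.79%) and 0 higher (4.41%), and Snai1 was 0.028 and Twist2 0.40. The strongest peak alone gave 0.028 for Snai1, 0.40 for Twist2, -0.11 for Zeb1 and -0.77 for Zeb2, and the median of a gene's peaks gave 0.028 for Snai1, -0.17 for Zeb1 and 0.30 for Zeb2. Without the weakest 25% of peaks 0 of 24 were higher (3.09%), and at a fold of 2 there were 0 lower (2.76% of all peaks) and 0 higher (0.504%). Intervals widened for extra variance, chosen after seeing the data, left 4 peaks below 0. The cause of these shifts was not tested beyond the construction of each alternative. Zeb1 was below 0 in all 14 alternatives run for it, 1 of them (separate windows with median-of-ratios scaling) also chosen after seeing the data. No paired analysis was possible because each condition has 1 library and the labels carry no replicate numbers. A median of 57.5 and 38.5 reads per peak limits what single peaks can resolve.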

Other observations

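The table places the nearest TSS of 3 further peaks at Twist1 or Zeb1 but assigns the peaks to introns of other genes, so they were not counted above. In intron 24 of 24 of Hdac9, the histone deacetylase gene beside Twist1, a peak at chr12:34125807-34126480, 118 kb from the Twist1 TSS and called in both libraries, had a density of 31.0 in NC and 19.4 in SiPiezo2, a log2 ratio of -0.65 (-1.30 to -0.025) from 74 and 31 reads. In intron 23 of 24 of Hdac9, 134 kb from the Twist1 TSS, the density was 14.4 in NC and 10.9 in SiPiezo2 (-0.38, -1.30 to 0.50). Of these the first passed 1.5-fold and the second did not.

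In intron 1 of 6 of Gm10125, 7.96 kb upstream of the Zeb1 TSS, a peak at chr18:5583764-5584033 called in SiPiezo2 only had 11.96 in NC and 22.8 in SiPiezo2, a log2 ratio of 0.88 (0.13 to 1.65) from 27 and 38 reads. Of the peaks that the table places nearest to a Zeb1 TSS it was the only one above 0, while the 9 peaks of Zeb1 itself, 8 within the gene and 1 at its start, were below 0 in the authors' normalization. Among all peaks called in SiPiezo2 only, the median was 0.58 and 49.8% were higher past 1.5-fold.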
